A study of Mus musculus with 3 samples.

Results

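The histone cluster genes are the genes whose symbols begin with Hist1h, Hist2h, Hist3h or Hist4h, and 67 of the 30406 gene identifiers shared by the 3 libraries matched this rule. They comprise 6 linker histone H1 genes, 18 H2A, 18 H2B, 12 H3 and 13 H4 genes. In the filtered cells they held 138135 UMIs, the molecular barcodes by which captured transcripts are counted. At least 1 UMI was counted for 65 members, at least 100 for 59 and at least 1000 for 35. Hist1h2aa and Hist1h2ba were at 0 in every library, where a count of 0 allows up to 3 UMIs by a one-sided 95% limit. Members were described by cell cycle phase and by library.

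Core histones H2A, H2B, H3 and H4 form the nucleosome around which DNA is wrapped, and H1 binds the linker DNA between nucleosomes. Cells make the replication-dependent histones of these clusters mainly while they copy their DNA, so that new nucleosomes keep pace with new DNA. Most replication-dependent histone mRNAs end in a conserved stem-loop bound by Slbp instead of a poly(A) tail, although some members also make polyadenylated transcripts, and a capture that primes on poly(A) counts the latter. In the thymus, iNKT cells (T cells with an invariant receptor for lipids on CD1d) divide at their precursor stages before they mature.

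Cells came from the thymus of 3 groups of mice, with several mice pooled into 1 droplet library per group. The C57BL/6 group (labelled WT, 7 weeks old) received no bone marrow transplantation (BMT). The BM only group (labelled Non-GVHD) and the BM + Spl group (labelled GVHD) were 16 weeks old and studied 9 weeks after BMT, in which the recipients, F1 (C57BL/6 x BALB/c) mice after lethal irradiation, were given T-cell-depleted C57BL/6 bone marrow, without or with C57BL/6 splenic cells. In all 3 groups CD8+ cells were removed before the sort for TCRβ+CD1d-tet+CD24−NK1.1− cells. These are iNKT cells without NK1.1, which include precursors and differentiated subsets. Strain was not part of the sort, so residual recipient cells cannot be told apart from donor cells here. With 1 library per group, no test was made between groups, and every interval is a 95% interval of counting error (exact Poisson for levels, Clopper-Pearson for shares, conditional exact binomial for ratios).

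The libraries held 60600408 (C57BL/6), 35041153 (BM only) and 43383960 (BM + Spl) UMIs, and 4434, 5970 and 5557 cells passed the filter (more than 200 and fewer than 6000 detected genes, with less than 10% of UMIs from mitochondrial genes). The C57BL/6 library stood apart. Its barcodes came from another set, with 0 shared with the other libraries, its table had 31053 instead of 32285 gene identifiers, its V beta segments summed to 17.8 CPM (UMIs per 1000000 UMIs of the shared genes) against 1504 and 1678, and Malat1 stood at 11355 CPM against 2206 and 1752. The labels name both a 3′ and a 5′ kit, without saying which library used which. Differences between C57BL/6 and the BMT libraries therefore cannot be told apart from differences of software or, if kits differed between them, of kit. Nor can they be told apart from those of age, host strain, irradiation and transplantation. The BM only and BM + Spl libraries shared 43 barcodes (0.718% and 0.772% of their cells). The 7 iNKT and T cell markers were all detected, at 5636, 3875 and 3989 CPM in the cells called neither S nor G2/M, and Zbtb16, the transcription factor that defines iNKT cells, stood at 304, 143 and 164 CPM over all cells. Markers of other cell types, summed in the cells called neither S nor G2/M, differed between the libraries. The 4 plasmacytoid dendritic cell markers summed to 150, 613 and 1350 CPM and the 6 markers of CD4+CD8+ thymocytes to 2.96, 98.5 and 243 CPM. The 5 B cell markers summed to 1.66, 131 and 91.2 CPM, the 4 regulatory T cell markers to 190, 327 and 429 CPM, the 6 macrophage and dendritic cell markers to 2.61, 77.3 and 78.5 CPM, and the 5 erythroid markers to at most 0.667 CPM. These sums need not come from cells of the named type. In C57BL/6, 2 of these cells had a UMI of Siglech, of the plasmacytoid list, and 2 one of Foxp3, of the regulatory list. The CD4+CD8+ list held Cd8a and Cd8b1 but not Cd4.

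The annotated transcripts of 46 of the 67 members (68.7%) held the stem-loop pattern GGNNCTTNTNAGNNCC, read on the transcript strand, against 201 of all 55450 annotated genes (0.362%, these members included), and every such match in a member lay in the 3′ UTR. The models of 13 members without a match end at the stop codon, so they cannot show whether the gene has a stem-loop. The form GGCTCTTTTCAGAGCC occurred in 26 members and the form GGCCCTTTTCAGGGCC in 7, all of the H4 family. The sites of the members on which the results below turn are shown from the GENCODE transcripts (GRCm38), 5′ to 3′, with the stem-loop in capitals and up to 5 bases on each side.
Hist1h1e, chr13:23621777-23621802, minus strand: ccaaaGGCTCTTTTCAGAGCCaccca
Hist1h1c, chr13:23739507-23739532, plus strand: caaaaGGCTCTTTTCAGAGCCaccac
Hist1h2ae, chr13:23570663-23570688, minus strand: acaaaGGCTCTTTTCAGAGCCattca
Hist1h2ao, chr13:21810893-21810918, plus strand: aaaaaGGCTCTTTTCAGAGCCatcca
Hist1h2ap, chr13:21833026-21833049, minus strand: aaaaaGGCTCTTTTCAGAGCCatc
Hist1h3b, chr13:23752815-23752840, plus strand: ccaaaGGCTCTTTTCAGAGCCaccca
Hist1h3g, chr13:23535884-23535909, plus strand: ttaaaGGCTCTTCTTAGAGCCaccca
Hist1h4d, chr13:23581945-23581970, plus strand: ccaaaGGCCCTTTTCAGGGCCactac
Hist3h2a, chr11:58955167-58955192, plus strand: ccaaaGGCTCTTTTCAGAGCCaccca
Hist4h4, chr6:136803993-136804018, minus strand: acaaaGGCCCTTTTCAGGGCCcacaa
The annotated transcript ends 3 bases after the stem-loop in Hist1h2ap, 31 in Hist1h2ao, 51 in Hist1h3b and 47 in Hist1h3g. The longest model runs on for 840 bases in Hist1h1c, 1153 in Hist1h1e, 151 in Hist1h2ae, 770 in Hist1h4d, 1643 in Hist3h2a and 2445 in Hist4h4.

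Of the 67 members, 54 lie on chromosome 13 between 21715763 and 23934851, 10 on chromosome 3, 2 on chromosome 11 and 1 on chromosome 6 (GRCm38), and 62 have a single exon in every model. Members are close copies. In 26 members over 50% of the 90-base words of their transcripts also occurred in another member, and 9 members shared no word with another. Genes outside the members were not searched. The split of UMIs among near-identical members, such as Hist1h2ao and Hist1h2ap, is therefore uncertain, while sums over them are less so.

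Promoters were available from RefSeq (GRCm38.p6, 250 bases before to 50 after the start) for 62 members. The octamer ATTTGCAT, on either strand, stood in 14 of them (22.6%), 7 of 18 H2A and 7 of 16 H2B genes and no H1, H3 or H4 gene, against 1.74% of the 32851 promoters in the table. CCAAT stood in 85.5% against 37.4%, in every H1, H2A, H2B and H3 promoter but in 3 of 12 of H4, and TATAAA in 56.5% against 13.6%. Many members share a promoter region head to head: 13 pairs started within 1000 bases of each other on opposite strands, 12 of them an H2A with an H2B gene. Hist1h2ae and Hist1h2bg, 176 bases apart, are shown from the side of Hist1h2bg, as 1 region that serves the most counted H2A gene and its H2B neighbour, with the matched letters in capitals.
Hist1h2bg, chr13:23571150-23571449, plus strand: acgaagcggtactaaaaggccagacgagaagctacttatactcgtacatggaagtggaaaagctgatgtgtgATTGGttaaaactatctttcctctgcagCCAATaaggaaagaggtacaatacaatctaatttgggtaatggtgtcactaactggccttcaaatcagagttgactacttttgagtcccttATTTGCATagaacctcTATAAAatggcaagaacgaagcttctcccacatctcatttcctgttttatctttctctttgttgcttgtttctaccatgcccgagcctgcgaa
In this window CCAAT was found at positions 73 (minus strand) and 101, the octamer at 192 and TATAAA at 208.

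The question of the phase comparison was where in the cell cycle these genes were detected in the cells sorted as thymic iNKT cells. A cell was called S when at least 4 of 7 S genes (Mcm2, Mcm3, Mcm5, Mcm6, Ung, Uhrf1, Hells) had a UMI, G2/M when at least 4 of 7 G2/M genes (Ccnb1, Ccnb2, Cdc20, Cenpa, Cenpf, Ube2c, Hmmr) had one, both when it met both rules, and other when it met neither. No histone cluster gene enters these rules. Given in the order C57BL/6, BM only, BM + Spl as all triplets below, 611, 479 and 709 cells were S, 205, 64 and 106 were G2/M, 208, 72 and 162 were both, and 3410, 5355 and 4580 were other. All filtered cells entered the comparison, whatever their type. Of other cells 2477, 1437 and 1387 had a Zbtb16 UMI, and in BM only and BM + Spl 538 and 561 had one of Foxp3, which marks regulatory T cells, 325 and 556 of Cd8a, 173 and 381 of Siglech, a plasmacytoid dendritic cell marker, and 80 and 59 of Cd79a, a B cell marker. In C57BL/6, 2 other cells had a Foxp3 UMI, 6 had one of Cd8a, 2 of Siglech and 0 of Cd79a. The phase calls rise with depth, and the median UMIs of a cell were 20855, 11706 and 14176 in S but 10008, 4466 and 5436.5 in other cells. Levels below are therefore CPM, the UMIs of a group of cells scaled to 1000000 UMIs over all shared genes. Doublets were not called, and their part in the group called both was not tested.

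Summed over all members, histone UMIs were lowest in other cells and highest in cells called both, in each library. In other cells the sum stood at 234 CPM (229 to 239) in C57BL/6, 517 (508 to 525) in BM only and 466 (458 to 474) in BM + Spl. In S cells it was 789, 2038 and 1678 CPM, in G2/M cells 1031, 3377 and 3772 CPM, and in both cells 3170, 7948 and 8434 CPM. Over the 3 libraries the mean log2 ratio to other cells was 1.86 ± 0.115 (SD, n = 3) in S, 2.62 ± 0.447 in G2/M and 3.96 ± 0.211 in both. The 3 libraries gave this order of the groups alike. The group both depends on depth. With cells thinned at random to 2700 UMIs before the phase calls, 0, 1 and 0 cells were called both. With the phase called first and the cells then thinned, both cells held a mean of 8.36, 23.6 and 24.8 histone UMIs. Other cells then held 0.617, 1.39 and 1.32.

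**Figure D1:**
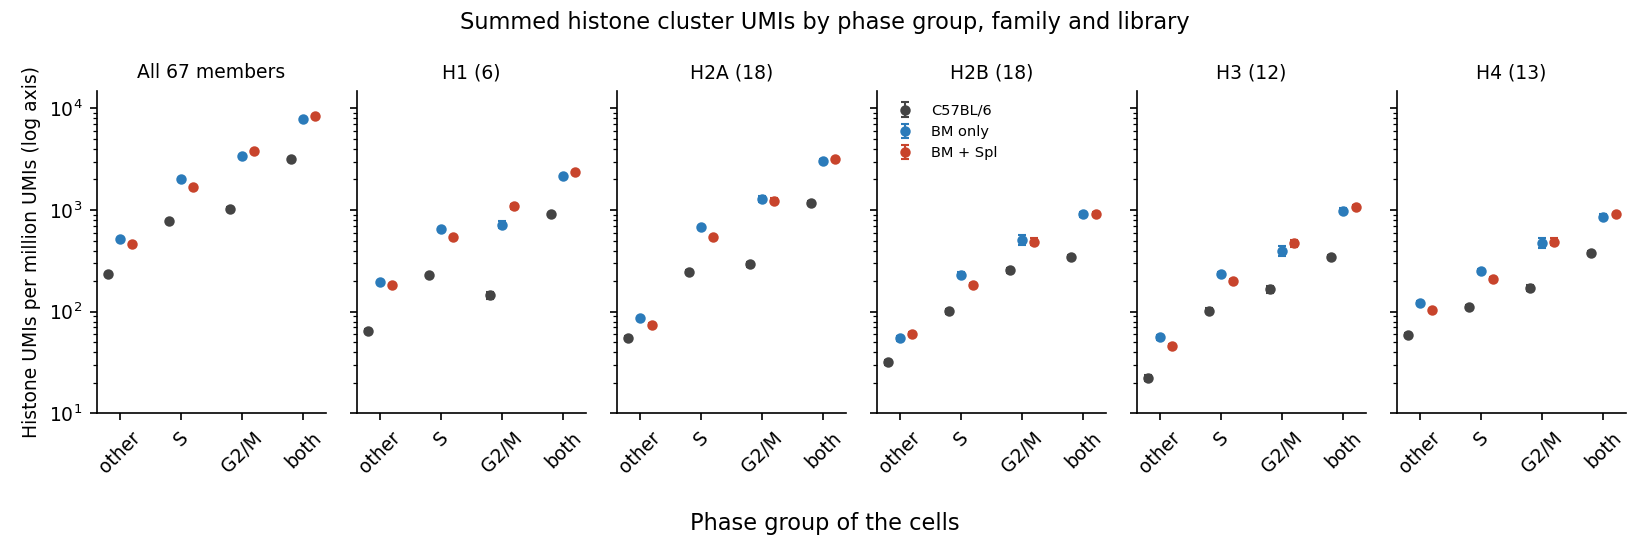
Summed histone cluster UMIs in CPM (log axis) by phase group, for all 67 members and for each family, in the C57BL/6 (grey), BM only (blue) and BM + Spl (red) libraries. Bars are exact Poisson 95% intervals, and in the panel of all members the points rise from other cells (234, 517 and 466 CPM) to cells called both (3170, 7948 and 8434 CPM).

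The typical S cell held far fewer histone UMIs than the mean. The median over S cells was 360, 605 and 490 CPM, against sums of 789, 2038 and 1678. Among cells called both the median was 1093 CPM in C57BL/6 but 8513 in BM only and 8858 in BM + Spl. A median of 6, 5 and 5 members was detected per S cell, 10, 13 and 12 per G2/M cell and 16, 30 and 34 per both cell, against 2 in other cells of every library.

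Among cells with at least 4 S genes, called S or both, the histone sum rose with the number of G2/M genes detected. This division was made after the sums by phase had been seen, and its steps from 4 G2/M genes on are the cells called both. In cells with 4 to 7 S genes it was 514 CPM in C57BL/6 when 0 to 1 G2/M genes were detected, then 1366 with 2 to 3, 2476 with 4 to 5 and 3646 with 6 to 7. The same steps were 1193, 4759, 7318 and 8940 CPM in BM only and 1026, 3715, 7070 and 9778 in BM + Spl. Cells with 4 to 6 S genes and 0 G2/M genes stood at 299, 616 and 435 CPM, and cells with none of the 14 phase genes at 207, 518 and 468 CPM. In BM + Spl the former thus lay below the latter. Cells with 2 to 3 S genes and 0 to 1 G2/M genes stood at 209, 479 and 417 CPM, below the cells with no phase gene in both BMT libraries. With all 7 S genes and 3 G2/M genes, 18 BM only cells stood at 10327 CPM (9953 to 10711), above the step of 6 to 7 G2/M genes in that library. The median depth of the cells with 4 to 7 S genes was higher at the last of these steps than at the first. It went from 19699 to 25354.5, 11271 to 16950 and 13726 to 17655 UMIs. It did not rise at every step. Between the step of 2 to 3 G2/M genes and that of 4 to 5 it went from 23442 to 21872.5, 15367.5 to 15362 and 17203.5 to 16709.5.

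**Figure D2:**
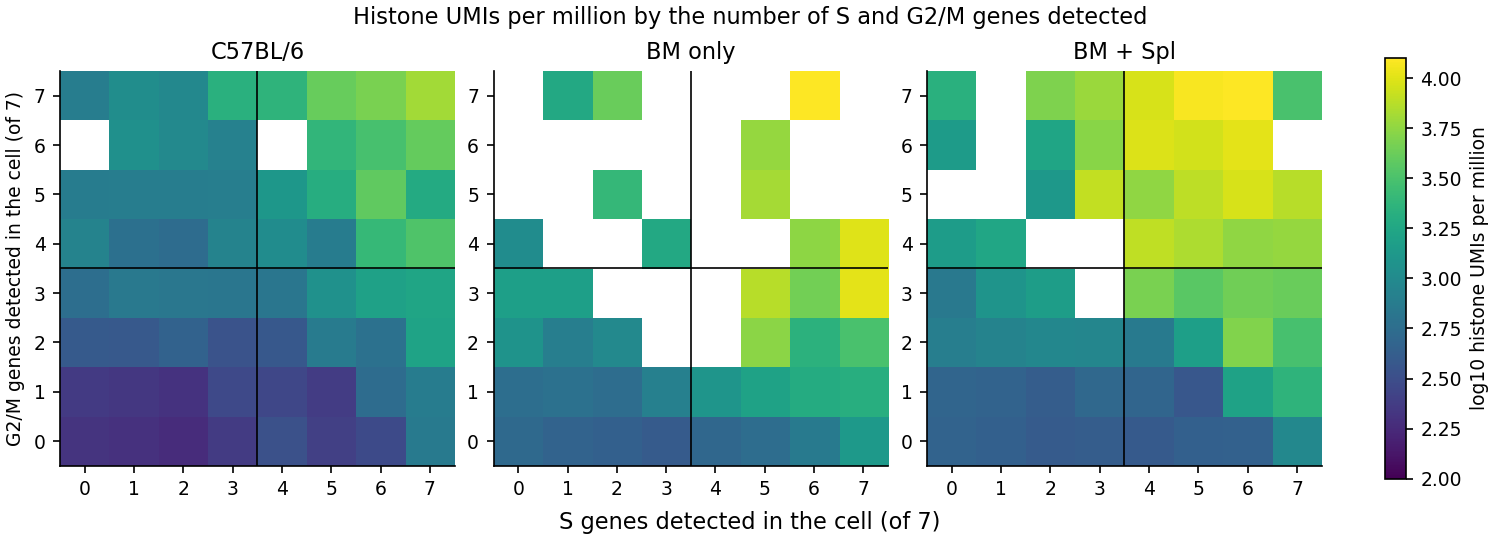
Histone CPM (colour, log10 scale) for cells grouped by how many of 7 S genes (horizontal axis) and of 7 G2/M genes (vertical axis) were detected, 1 panel per library, with groups under 5 cells left blank and lines at the threshold of 4 genes. The sum is low along the bottom up to 3 S genes (209, 479 and 417 CPM with 2 to 3 S and 0 to 1 G2/M genes) and high towards the upper right (3646, 8940 and 9778 CPM with 6 to 7 G2/M and at least 4 S genes), but not in even steps, as BM only reaches 10327 CPM with 7 S and 3 G2/M genes.

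A small number of cells held much of the histone RNA. At a level of 5000 CPM or more, chosen after the values were seen, 76 C57BL/6 cells (1.71%), 119 BM only cells (1.99%) and 192 BM + Spl cells (3.46%, interval 2.99 to 3.97) held 40.2%, 47.8% and 60.8% of all histone UMIs. Of these cells 20, 49 and 59 were S, 54, 43 and 108 both, 2, 14 and 20 G2/M and 0, 13 and 5 other. The level is a range and not a type, since 25, 37 and 39 cells lay between 4000 and 6000 CPM. Their median depth was 26677, 13523 and 15885.5 UMIs, against 11943, 4686 and 6278 in the rest. Without them the histone sum was 416, 596 and 592 CPM.

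As a description, other genes of replication and of G2/M were set beside this level in the same cells and in the remaining cells called S, G2/M or both. Rrm2, the ribonucleotide reductase subunit that supplies deoxynucleotides, stood at 549, 574 and 518 CPM in cells of 5000 CPM or more and at 74.5, 81.1 and 91.2 CPM in the others. Top2a, the topoisomerase that untangles replicated DNA and a G2/M gene outside the rule, stood at 1220, 496 and 574 CPM against 136, 63.2 and 71.0. Slbp, which binds the histone stem-loop, stood at 316, 367 and 369 against 154, 192 and 174 CPM. Subunits of the MCM helicase differed less than Rrm2, Top2a and Slbp in each library. Mcm5 was higher in every library, at 255, 226 and 227 CPM against 152, 184 and 186. Mcm7 was higher in every library too, at 292, 232 and 206 CPM against 153, 155 and 145. Mcm2, Mcm3 and Mcm4 were higher in C57BL/6 but lower in BM + Spl, where Mcm6 was nearly the same. Mcm2 stood at 128, 148 and 123 CPM against 113, 159 and 151, Mcm3 at 265, 277 and 255 against 206, 272 and 266, Mcm4 at 102, 173 and 145 against 92.6, 177 and 159, and Mcm6 at 290, 377 and 341 against 226, 354 and 340. Ung, a uracil glycosylase among the S genes of the rule, was lower, at 37.5, 71.1 and 41.8 CPM against 71.3, 115 and 119. Uhrf1, also of the rule, was higher, at 183, 161 and 144 CPM against 76.3, 78.7 and 74.2. Hells, the remaining S gene of the rule, stood at 147, 199 and 149 CPM against 113, 161 and 141. Nusap1, a mitotic gene outside the rule, stood at 281, 167 and 198 CPM against 18.1, 11.4 and 11.6. Aurkb stood at 119, 136 and 157 CPM against 11.8, 19.0 and 19.4, and Plk1 at 97.4, 77.0 and 99.1 against 15.1, 9.35 and 10.5. Ube2c, a G2/M gene of the rule, stood at 312, 330 and 422 CPM against 76.9, 43.1 and 50.3. Of that rule, Ccnb2 and Cenpa were lower in C57BL/6, at 105 and 212 CPM against 138 and 255, but higher in the BMT libraries. Genes of the rule helped to call the cells compared, so the call partly sets their levels. The phase mix of the cells compared was not matched.

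A histone UMI was found in 80.7%, 80.9% and 83.4% of other cells, and in 94.8%, 97.1% and 96.5% of S cells, while every G2/M and both cell had one. With each cell thinned to 2700 UMIs after its phase had been called, the share in other cells was 43.4%, 66.6% and 64.3% and in S cells 60.1%, 80.1% and 70.8%, leaving out 15, 959 and 568 shallower cells. Of cells with none of the 14 phase genes, 77.1%, 78.6% and 78.5% had a histone UMI before thinning. No cell type of these libraries is known to lack histone genes, so the share that free RNA in the droplets can give was not tested.

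The families kept different shares of the sum. H2A genes took 23.7%, 16.7% and 15.9% of histone UMIs in other cells and 37.4%, 38.4% and 37.4% in both cells. H4 genes took 25.4%, 23.8% and 22.1% in other cells and 11.9%, 10.9% and 10.8% in both cells. H1 genes were the largest group of other cells, with 27.7%, 38.2% and 39.2%, and held 28.8%, 27.0% and 28.2% in both cells. The 8 members with most UMIs held 52.8% of the total, led by Hist1h1e with 11.8%, Hist1h2ae with 10.4% and Hist1h1b with 7.49%.

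Members were then tested 1 by 1 with edgeR's quasi-likelihood test on 12 sums (4 phase groups in 3 libraries), with library as a block because the groups of a library come from the same tube, fitted on 11524 genes with Benjamini-Hochberg adjustment. The p-values measure the spread of the phase ratios over 3 libraries that are also 3 different conditions. Of the 62 members with enough counts, 52 were higher in S than in other cells and 2 lower at an adjusted p under 0.05, where 23.4% of all genes fitted were called higher and 27.1% lower. Their median log2 fold change was 2.27, against -0.09 over all genes fitted. The 5 members left out had too few UMIs (Hist1h1t, Hist1h2aa, Hist1h2ba, Hist2h3c1 and Hist2h3c2). Without the library block the test called 26 members higher and 0 lower.

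In G2/M against other cells 53 members were higher and 0 lower (18.5% and 21.9% of all genes fitted), with a median log2 fold change of 3.10. The contrast of both against other cells, added after the levels had been seen, gave 57 higher and 0 lower (23.1% and 29% of all genes fitted) with a median of 4.11, and both against S gave 56 higher and 0 lower (5.05% and 2.45%) with a median of 2.03. The 5 members not called in both against other cells were Hist1h4m, Hist2h2aa2, Hist2h2ab, Hist2h2be and Hist3h2a. Of these, Hist1h4m and Hist2h2aa2 are near-identical to Hist1h4n and Hist2h2aa1. Hist1h4m and Hist1h4n summed to 4.54, 91.5 and 84.8 CPM in both cells, against 0.544, 24.4 and 15.2 in other cells. Hist2h2aa1 and Hist2h2aa2 summed to 13.2, 39.6 and 23.3 CPM, against 2.77, 16.0 and 13.8. Against G2/M cells, 0 members were higher in S and 32 lower (12.1% and 10.4% of all genes fitted), with a median of -0.91. Cells that met both rules, which had the highest sums (3170, 7948 and 8434 CPM), are in neither group of this contrast. It therefore concerns the cells called S by the rule and not all cells in S phase. At an unadjusted p under 0.05 the edgeR test counted 1 member higher in S than in G2/M (Hist1h1a), 0 lower in G2/M and 1 lower in both than in other cells (Hist3h2a), and 0 lower in both than in S, while DESeq2 called 0 in each of these directions. The largest differences in favour of S were those of Hist2h2aa2 (0.97 ± 0.90), Hist1h1a (0.66 ± 0.29) and Hist1h4a (0.55 ± 0.45), with adjusted p-values of 0.487, 0.112 and 0.414. The 32 fell to 17 without the BM only library and to 19 without the BM + Spl library, and to 4 without the library block.

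**Figure D3:**
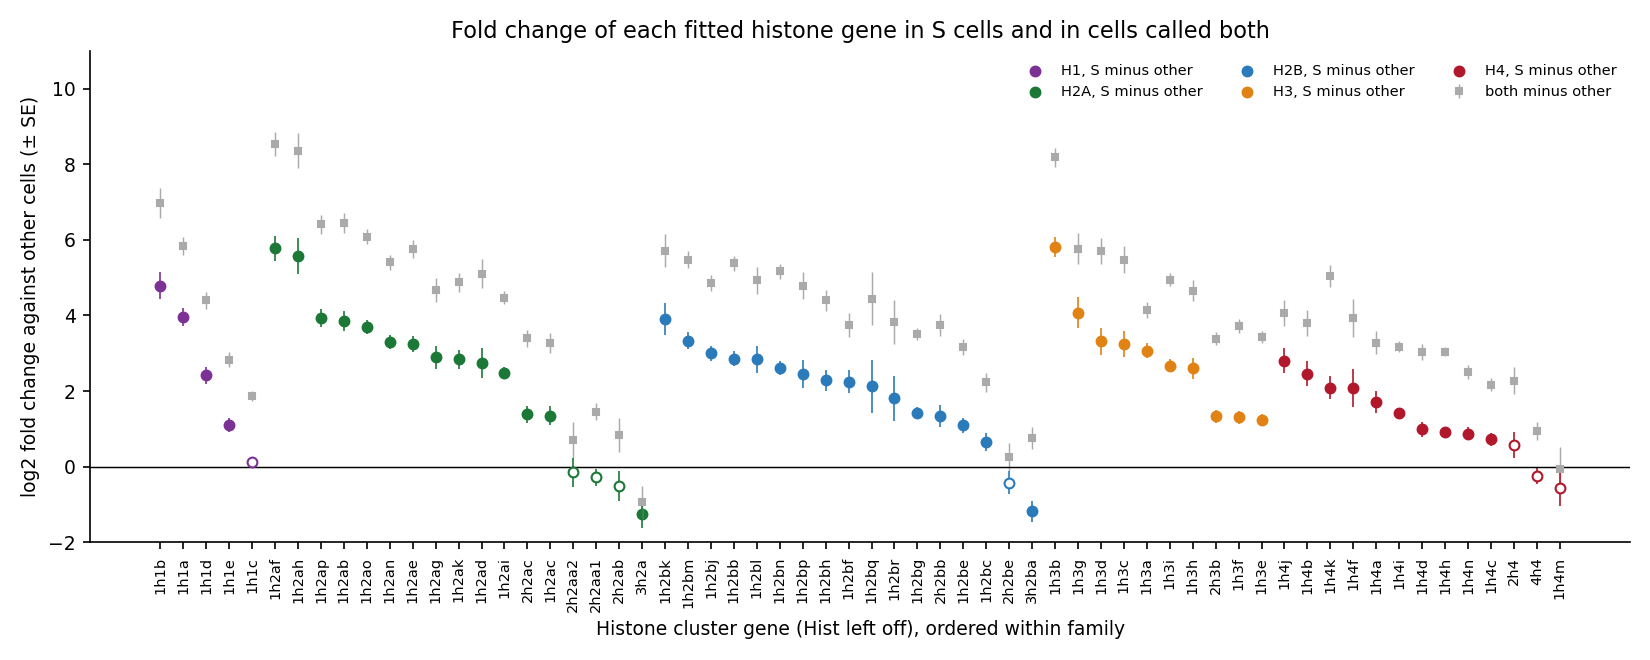
The log2 fold change against other cells with its SE, from the edgeR fit, for each of the 62 fitted members, ordered within families, in S cells (coloured; open where the adjusted p was 0.05 or more) and in cells called both (grey squares). The S values reach from -1.25 (Hist3h2a) to 5.80 (Hist1h3b), and the values of both stand above those of S for every member.

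Of the linker histones, 4 of 5 fitted members were higher in S than in other cells. Hist1h1b stood at 116, 143 and 133 CPM in S cells of C57BL/6, BM only and BM + Spl, at 39.8, 112 and 295 in G2/M, at 526, 584 and 700 in both, and at 3.70, 4.96 and 6.19 in other cells. All S values lay far above all values of other cells, and the log2 fold change was 4.79 ± 0.36 (SE, adjusted p = 1.3e-07, edgeR quasi-likelihood test). Its difference between S and G2/M was 0.12 ± 0.34 (adjusted p = 0.852), with C57BL/6 higher in S and BM + Spl higher in G2/M. Hist1h1a rose by 3.97 ± 0.24 and Hist1h1d by 2.41 ± 0.22.

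Hist1h1e and Hist1h1c were the H1 genes with the highest levels in other cells, a group that can hold cycling cells with few phase genes detected. Hist1h1e stood at 37.3, 95.3 and 94.2 CPM in other cells and at 65.2, 242 and 205 in S, a log2 fold change of 1.10 ± 0.19 (adjusted p = 0.000236, edgeR). Its level in other cells differed by marker, at 175 and 173 CPM in those with a Foxp3 UMI in BM only and BM + Spl against 88.6 and 75.8 in those with a Zbtb16 UMI. Hist1h1c stood at 19.2, 74.4 and 60.2 CPM in other cells and at 20.02, 85.6 and 65.4 in S. The S value was slightly the higher in each library, with a log2 difference of 0.14 ± 0.13 (adjusted p = 0.387, edgeR), and it stood at 61.6, 268 and 252 CPM in both cells (1.88 ± 0.13). In S against other cells its difference turned to -0.12 when at least 3 phase genes were asked, and was past the threshold with at least 5 (0.36), when cells were thinned (0.57) and among cells with a Zbtb16 UMI (0.52). Other cells with a Foxp3 UMI stood at 111 and 79.4 CPM of Hist1h1c in BM only and BM + Spl, and those with a Zbtb16 UMI at 54.7 and 41.4. The part of cell type in these levels was not tested.

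Among H2A genes 13 of 17 were higher and 1 lower in S. Hist1h2ae stood at 11.1, 19.0 and 17.9 CPM in other cells, 82.5, 212 and 186 in S, and 436, 1063 and 1255 in both cells. The rise in S was 3.25 ± 0.22 (adjusted p = 3.79e-08, edgeR), and S was lower than G2/M by a log2 difference of -0.90 ± 0.21 (adjusted p = 0.00717). Hist1h2ao rose by 3.71 ± 0.18 and Hist1h2ap by 3.93 ± 0.24. The members with the largest folds had few UMIs in other cells. Hist1h2af stood at 0.0816, 0.370 and 0.282 CPM in other cells and at 2.70, 27.5 and 13.5 in S (5.78 ± 0.34), and Hist1h2ah at 0.0544, 0.111 and 0.211 and at 0.154, 10.4 and 9.48 (5.57 ± 0.47). For Hist1h2ah the C57BL/6 library gave 2 UMIs in each of these groups, so the fold rests on the BMT libraries.

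Hist3h2a, on chromosome 11, was the H2A gene lower in S. It stood at 10.3, 0.407 and 0.457 CPM in other cells and at 4.78, 0.342 and 0 CPM in S, and 495 of its 523 UMIs were in the C57BL/6 library. The log2 fold change of -1.25 ± 0.38 (adjusted p = 0.0129, edgeR) therefore rests on 1 library, and it did not enter the fit without C57BL/6. DESeq2 did not call it, nor did edgeR without the library block, and it did not enter the fit of thinned cells.

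Among H2B genes 15 of 17 were higher and 1 lower in S. Hist1h2bj, at 34.0, 41.0 and 41.9 CPM in S against 5.82, 3.92 and 4.54 in other cells, rose by 2.997 ± 0.203, and Hist1h2bk, at the upper end of the family, by 3.92 ± 0.42. Hist1h2bg, the head-to-head neighbour of Hist1h2ae shown above, rose by 1.43 ± 0.15, less than the 3.25 of its neighbour. Hist1h2ag and Hist1h2bj, 270 bases apart, rose by 2.89 and 2.997. The lower member, Hist3h2ba, neighbour of Hist3h2a, stood at 2.86, 3.44 and 6.12 CPM in other cells, 2.08, 1.20 and 1.82 in S and 8.81, 9.65 and 7.66 in G2/M. It was lower in S than in other cells by a log2 difference of -1.18 ± 0.28 (adjusted p = 0.00327, edgeR) and lower in S than in G2/M by -2.25 ± 0.36 (adjusted p = 0.000519). The first call was lost without the BM + Spl library (-0.85), among cells with a Zbtb16 UMI (-0.34) and without the library block (-1.21), and the gene did not enter the fit of thinned cells.

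Hist1h2bc moved differently in the libraries. In other cells it stood at 6.31, 10.1 and 18.4 CPM, in S at 11.5, 27.2 and 14.9, and in G2/M at 42.7, 85.5 and 113. The ratio of S to other cells was 1.82 (1.47 to 2.24) in C57BL/6 and 2.69 (2.20 to 3.28) in BM only but 0.813 (0.676 to 0.974) in BM + Spl. In the joint fit its log2 fold change was 0.65 ± 0.24 (adjusted p = 0.0374, edgeR), a call lost without either C57BL/6 (0.59) or BM only (0.31) and at a threshold of 3 phase genes (0.36). S was lower than G2/M by -2.12 ± 0.27 (adjusted p = 7.42e-05).

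All 10 fitted H3 genes were higher in S. Hist1h3b, the member with the largest fold, stood at 0.109, 0.518 and 0.528 CPM in other cells, 4.31, 28.7 and 29.4 in S, and 15.7, 163 and 170 in both cells. The groups did not overlap, and the log2 fold change was 5.80 ± 0.27 in S (adjusted p = 7.06e-10, edgeR) and 8.18 ± 0.26 in both. Hist1h3g, whose stem-loop letters differ from the common form, stood at 0.625, 0.481 and 0.387 CPM in other cells and 4.47, 8.88 and 15.2 in S (4.07 ± 0.41). Hist1h3e rose by 1.25 ± 0.15, Hist1h3i by 2.68 ± 0.17 and Hist1h3c by 3.24 ± 0.35. Hist1h3d was lower in S than in G2/M by -1.40 ± 0.36 (adjusted p = 0.0124), a call lost when the BM only or the BM + Spl library was left out.

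Of the H4 genes 10 of 13 were higher in S, with the lowest median of the families (0.99, against 2.87 in H3, 2.84 in H2A, 2.25 in H2B and 2.41 in H1). Hist1h4d, the most counted H4 gene, stood at 33.3, 33.1 and 37.4 CPM in other cells, nearly the same in all libraries, and at 50.2, 81.0 and 83.1 in S (0.99 ± 0.20, adjusted p = 0.00115, edgeR). Hist1h4i rose by 1.41 ± 0.14 and Hist1h4h by 0.93 ± 0.12. Hist4h4, on chromosome 6, stood at 1.63, 12.4 and 6.83 CPM in other cells and 1.39, 13.3 and 4.02 in S (-0.24 ± 0.22, adjusted p = 0.387), and Hist1h4m at 0, 0.926 and 3.59 and at 0, 0.683 and 2.20 (-0.57 ± 0.47, adjusted p = 0.339). The split of UMIs between Hist1h4m and the near-identical Hist1h4n is uncertain. Their sum was higher in S (1.39, 34.5 and 26.1 CPM) than in other cells (0.544, 24.4 and 15.2). The H2A and H2B genes Hist2h2ab and Hist2h2be gave -0.51 ± 0.40 and -0.42 ± 0.30 and did not pass the test either.

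Grouped by the annotated end of their transcripts, which the selection of members did not use, the 23 members whose model ends within 100 bases of the stem-loop had a median log2 fold change of 2.86 in S, and the 20 fitted of 23 whose model runs over 100 bases past it had 1.28. The 15 fitted of 17 members without the pattern and under 100 bases after the coding region had 2.68, and the 4 without it and with a longer end 1.23. Of the 17, 13 have a model that ends at the stop codon, so this class need not lack the stem-loop. This is a description across genes that share sequence and libraries, with no test. Members whose model runs past the stem-loop reached from -1.25 (Hist3h2a) to 3.31 (Hist1h3d), with Hist1h1c (0.14), Hist1h4d (0.99) and Hist1h1e (1.10) low and Hist1h1d (2.41), Hist1h4j (2.81) and Hist1h2ae (3.25) high in that range. How far poly(A) priming shaped these values was not tested.

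**Figure D4:**
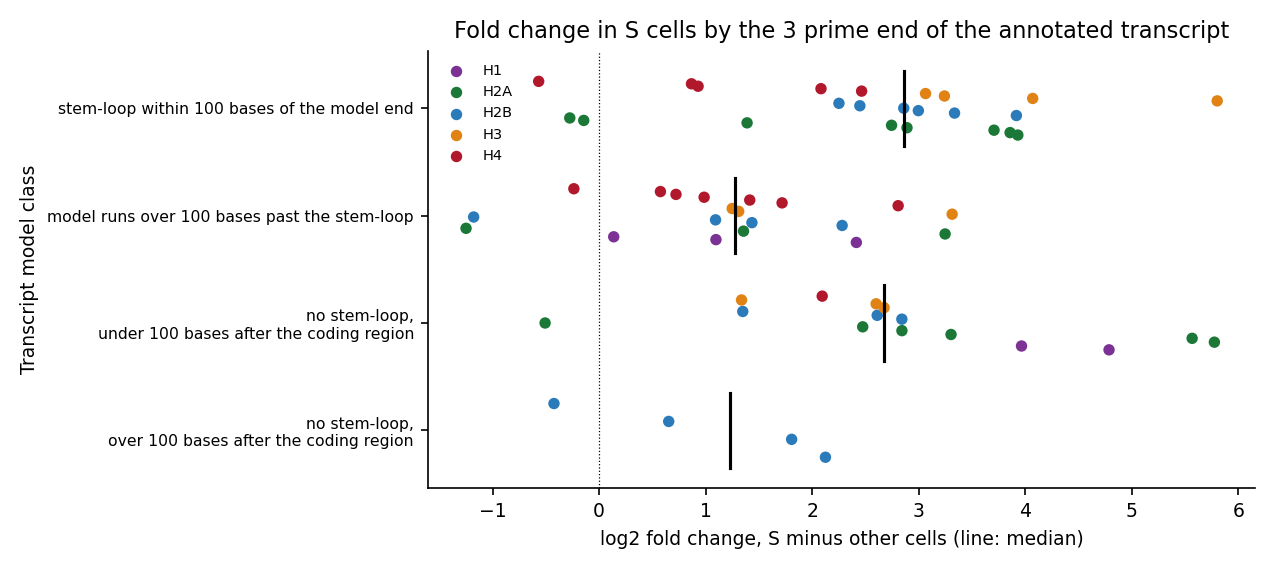
The log2 fold change of S over other cells for each fitted member (points, coloured by family), grouped by the 3′ end of its annotated transcript, with the median as a black line. The medians are 2.86 (stem-loop within 100 bases of the end), 1.28 (model running on past it), 2.68 (no stem-loop in the model, short end) and 1.23 (no stem-loop in the model, long end), and the classes overlap widely.

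The other genes of histone supply were counted from fixed lists. Of 9 fitted replication-independent histones 6 were higher and 1 lower in S than in other cells, and 7 were higher in G2/M. H2afz, the H2A.Z variant, stood at 1011, 1500 and 1459 CPM in S against 315, 473 and 507 in other cells (1.64 ± 0.06). H3f3a, an H3.3 gene, rose by 0.41 ± 0.08, and H3f3b, the other H3.3 gene, was lower in S by -0.25 ± 0.06 (adjusted p = 0.0051, edgeR).

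Of 17 fitted genes of histone mRNA transcription and processing, 13 were higher and 0 lower in S, 4 were higher in G2/M, and 9 were higher in S than in G2/M, where none of the histone cluster genes was. Slbp stood at 186, 230 and 203 CPM in S, 50.4, 82.7 and 76.6 in G2/M, 210, 293 and 312 in both and 61.7, 74.4 and 55.8 in other cells. It was higher in S than in G2/M by 1.66 ± 0.16 (adjusted p = 5.66e-06, edgeR), and its G2/M value was close to that of other cells (0.03 ± 0.16). E2f1, a transcription factor of S phase entry, rose in S by 3.93 ± 0.16 and Npat, the coactivator of histone genes, by 0.62 ± 0.13. Srrt rose by 0.57 ± 0.09, and Cpsf3, the nuclease that cuts the histone mRNA, gave 0.16 ± 0.09 (adjusted p = 0.144).

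Of 15 histone chaperones and assembly factors, 13 were higher in S, 9 in G2/M and 8 higher in S than in G2/M. Asf1b, an H3 and H4 chaperone, rose in S by 4.13 ± 0.18, Chaf1a, of the assembly factor CAF-1, by 4.30 ± 0.21, Nap1l1 by 1.42 ± 0.12 and Rbbp4 by 0.86 ± 0.11, while Atrx gave -0.09 ± 0.10 (adjusted p = 0.452). As a check of the phase calls, all 12 S genes outside the rule (such as Pcna, 2.16 ± 0.11, Tipin and Mcm7) and all 12 G2/M genes outside it (such as Top2a, 3.63 ± 0.15, Mki67 and Birc5) were higher in S than in other cells. Between S and G2/M cells the former were all higher in S and the latter all higher in G2/M.

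BM + Spl was compared with BM only within phases, which asks whether the histone genes differed after transplantation with splenic cells. Over all cells the sum was 1407 CPM in BM + Spl and 1091 in BM only, a ratio of 1.29 (1.27 to 1.31). Within phases the ratio was 0.823 (0.804 to 0.843) in S, 1.12 (1.06 to 1.17) in G2/M, 1.06 (1.04 to 1.09) in both and 0.902 (0.881 to 0.924) in other cells. These intervals cover counting error and not the spread between cells. Of S cells, 8.32% (6.39 to 10.6) in BM + Spl and 10.2% (7.66 to 13.3) in BM only held 5000 CPM or more. Other cells held 65.9% of the UMIs in BM + Spl and 77.6% in BM only, and at the phase mix of BM only the ratio over all cells was 0.932.

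The ratios within phases were small and depended on which cells were compared. Among cells with a Zbtb16 UMI the S ratio lay on the other side of 1 (log2 0.09 against -0.28), the ratio in other cells did so when cells were thinned to 2700 UMIs (0.24 against -0.15), and the G2/M ratio did so under 4 of the settings tried. Plasmacytoid dendritic cell markers stood at 1350 CPM in other cells of BM + Spl and 613 in BM only, and their part in these ratios was not tested.

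By member, 1 of 50 members with at least 50 UMIs was past 1.5-fold higher and 10 past 1.5-fold lower in S cells of BM + Spl, where 2.78% and 4.88% of all genes with as many UMIs were. In G2/M cells 5 of 35 were higher and 2 lower (5.31% and 4.96% of genes), in both cells 0 of 49 and 4 (4.66% and 3.51%), and in other cells 4 of 45 and 9 (7.89% and 7.69%). Over all cells 15 of 59 were higher and 1 lower (6.83% and 8.28%). The balance turned with the cells compared, to 5 higher and 1 lower in S among Zbtb16-positive cells and to 17 higher and 5 lower in other cells thinned to 2700 UMIs.

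In S cells Hist1h3g stood at 15.2 CPM in BM + Spl and 8.88 in BM only, a ratio of 1.71 (1.25 to 2.39), and was the member past 1.5-fold higher. Hist1h2bf (1.30) and Hist1h2bk (1.16) followed. Hist4h4 stood at 4.02 and 13.3 CPM, a ratio of 0.302 (0.202 to 0.445), Hist1h3d at 6.51 and 15.03 (0.433) and Hist1h2af at 13.5 and 27.5 (0.491). Hist4h4 kept this direction in other cells (0.55) and in the sum over all cells (0.521, 0.448 to 0.605), where it was the member past 1.5-fold lower.

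In G2/M cells the H1 family stood at 1089 CPM in BM + Spl and 720 in BM only, a ratio of 1.51 (1.37 to 1.68), while the other families lay between 0.957 and 1.19. Named after their values were seen, the 5 higher members were Hist1h1b (2.64), Hist1h1a (2.04), Hist2h2bb (1.99), Hist1h3b (1.89) and Hist1h1e (1.64), and the 2 lower ones Hist1h2bg (0.533) and Hist1h4c (0.539). These values come from 106 and 64 cells. Macrophage and dendritic cell markers summed to 2.30 CPM in the G2/M cells of BM + Spl and to 359 in those of BM only, and their part in these ratios was not tested. In both cells the 4 lower members were Hist1h4k (0.429), Hist1h4a (0.551), Hist2h2aa1 (0.572) and Hist1h2ah (0.624).

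In other cells the 4 higher members were Hist1h4m (3.59 against 0.926 CPM, ratio 3.88, 2.48 to 6.27), Hist1h2bc (18.4 against 10.1, ratio 1.82, 1.57 to 2.11), Hist2h2be (1.78) and Hist3h2ba (1.78). Hist1h4m shares sequence with Hist1h4n, which stood at 11.6 CPM against 23.5 (0.492), and their sum was 15.2 against 24.4 CPM. Hist2h4 (0.415) and Hist2h2bb (0.471) were the lowest with Hist1h4n. For Hist1h2bc, other cells with a Zbtb16 UMI stood at 16.0 CPM in BM + Spl, 10.7 in BM only and 6.82 in C57BL/6. Other cells with a UMI of Siglech stood at 29.9 and 21.0 CPM in BM + Spl and BM only, and those with one of Cd79a at 37.0 and 55.7 CPM. The difference between the BMT libraries was thus present among Zbtb16-positive cells, and the part of the other cell types in it was not tested.

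**Figure D5:**
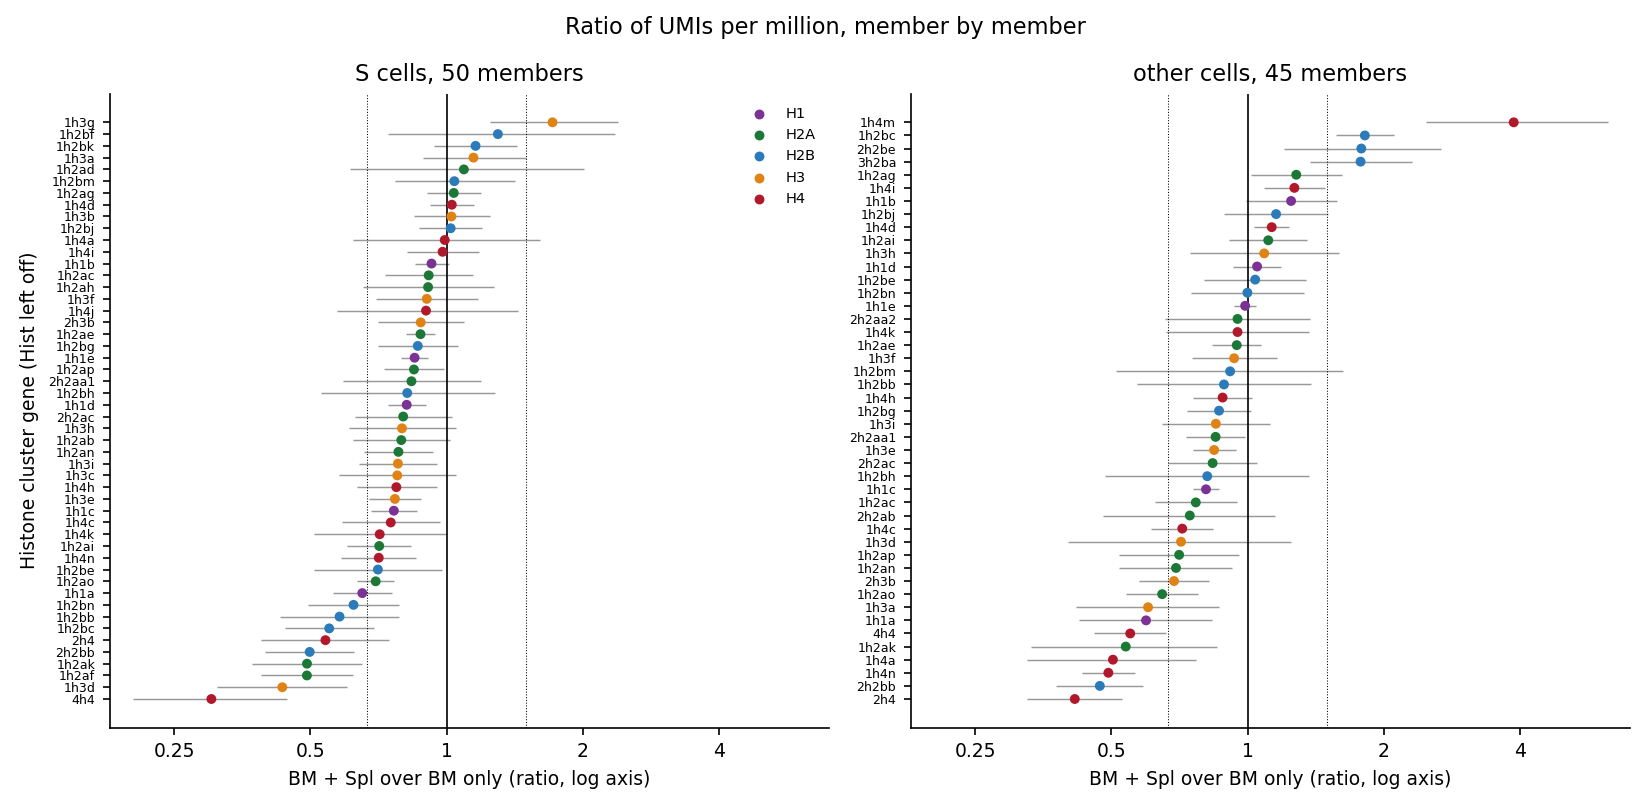
The ratio of CPM in BM + Spl to BM only (log axis) for each member with at least 50 UMIs, in S cells (left, 50 members) and other cells (right, 45 members), coloured by family, with exact binomial 95% intervals and dotted lines at 1.5-fold. In S cells the members reach from Hist4h4 at 0.302 up to Hist1h3g at 1.71. Their median log2 ratio is -0.31, against -0.04 over all genes with as many UMIs. In other cells Hist1h4m at 3.88 stands apart.

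The C57BL/6 library is given against BM only with the limit stated above. The sum was lower in C57BL/6 in each phase, with ratios of 0.387 in S, 0.305 in G2/M, 0.399 in both and 0.454 in other cells, while the median log2 ratio of all genes was -0.15, -0.07, -0.03 and -0.23. In S cells 2 of 49 members were past 1.5-fold higher and 36 lower (14.4% and 26.6% of genes), in G2/M cells 1 of 34 and 25 (17.7% and 22.1%), in both cells 2 of 48 and 35 (19.1% and 21.8%), and in other cells 5 of 48 and 30 (15.2% and 34.3%). Hist1h3c was higher in C57BL/6 in each of these groups (35.6 against 13.7 CPM in S, ratio 2.60, 2.05 to 3.34), as was Hist3h2a in S (4.78 against 0.342 CPM, the latter 2 UMIs; ratio 13.98, 3.71 to 118) and in other cells, where Hist2h2ac, Hist1h2ab and Hist1h4b were the remaining members past 1.5-fold, while Hist1h4b was the other member past it in both cells (1.54, 0.786 to 3.35).

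Near-identical genes split differently between the libraries. Hist1h2ao stood at 0.616 CPM in S cells of C57BL/6, 136 in BM only and 95.0 in BM + Spl, whereas Hist1h2ap stood at 55.8, 49.5 and 42.0 CPM. Summed, the pair stood at 56.4, 186 and 137 CPM in S, so that the ratio of C57BL/6 to BM only for the pair was nearer to that of all members than for Hist1h2ao alone (0.0045).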

How the data were processed

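Cells sorted as thymic iNKT cells from 3 groups of mice were captured in 1 droplet library per group. The authors deposited raw UMI counts per gene and cell, made with Cell Ranger on mm10, without normalization or a filter on cells, and per the labels Seurat 4.0.2 was used later. The version in the table headers differs between the C57BL/6 library and the BMT libraries, and the kit of each library is not given in the sources used here.

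Here, cells were kept if they had more than 200 and fewer than 6000 genes and less than 10% of UMIs on mitochondrial genes, phases were called on raw UMIs, and counts were summed per library and phase. The 12 sums were tested with edgeR 4.0.16 (R 4.3.3) with library as a block, since the phase groups of a library were captured together. DESeq2 1.42.0 was an alternative. Between libraries, a member counted as past the fold at 1.5-fold with at least 50 UMIs over both sums. Sums and intervals were computed with scipy 1.17.1, numpy 2.4.6 and pandas 2.3.3 under Python 3.11.15, and figures with matplotlib 3.10.9. On simulated counts of 11027 genes for S against other cells, 98% of 200 changed genes and 0.0924% of the unchanged ones were called. In the data 23.4% of genes were called higher and 27.1% lower in that contrast, a far larger share than was changed in the simulation. The simulated rates therefore need not hold for the data.

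The members and lists were chosen with earlier results of these data known, and the lists were written from general knowledge. Members named were the 3 most counted of each family, the 5 with the largest and 5 with the smallest fold in S against other cells, the 3 at each end in S against G2/M cells and in BM + Spl against BM only (S and other cells), and any whose direction differed between libraries. Others named in the text were chosen after their values were seen, as were the contrasts with cells called both, the division by G2/M genes, the level of 5000 CPM, the phase mix and the sums of near-identical genes. Alternatives were other phase thresholds, cells thinned to 2700 or 4000 UMIs, Zbtb16-positive cells, leaving out the deepest 5% of cells or a library, other scalings, filters and tests.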

Additional observations from a re-analysis of the deposited data

Results flagged for a closer look

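The ratio of S to other cells for Hist1h2bc, an H2B gene, was 1.82 (1.47 to 2.24) in C57BL/6 and 2.69 (2.20 to 3.28) in BM only, but 0.813 (0.676 to 0.974) in BM + Spl. It stood out because its direction in 1 library was opposite to that in the others. The difference between the libraries was not tested, since each condition has 1 library and the intervals cover counting error only.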

How the results depend on the processing

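With library as the block that pairs the phase groups, 52 members were higher in S than in other cells, and without the block 26. Leaving the block out moved the count of higher members from 53 to 32 in G2/M against other cells and from 56 to 12 in both against S. The members lower in S than in G2/M then went from 32 to 4, and the 2 lower in S than in other cells to 0. Those 2 became 1 with DESeq2 and among Zbtb16-positive cells, 0 in thinned cells, and 1 to 2 with a library left out. The members higher in S than in G2/M went from 0 to 1 with no filter, at 3 phase genes and among Zbtb16-positive cells, and to between 0 and 2 with a library left out (2 without BM + Spl, Hist1h1a and Hist1h1b). The 32 lower ones became 17 without BM only, 19 without BM + Spl and 31 without C57BL/6. At 3 phase genes 1 member was lower in both than in other cells. The causes of these shifts were not tested.

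In S against other cells Hist1h1c turned to -0.12 at 3 phase genes and Hist4h4 to 0.197 among Zbtb16-positive cells. In G2/M against other cells Hist1h4m turned to 0.24 with DESeq2 and to 0.026 and 0.595 at 3 and 5 phase genes, where Hist2h2be (0.166) and Hist2h2aa2 (0.004) turned at 5. In S against G2/M Hist1h1b turned to -0.114 without the block, -0.120 at 5 phase genes, -0.297 in thinned cells and -0.516 without C57BL/6 (1.09 without BM + Spl, a call), Hist2h2aa2 to -0.208 at 5 phase genes, Hist1h1a to -0.276 and Hist2h4 to 0.0016 in thinned cells, and Hist1h1e to 0.0905, Hist1h2ap to 0.0315 and Hist2h4 to 0.0774 without BM + Spl. None of these members passed the test of that contrast with the block and all libraries. With a library left out, the values in S against G2/M reached from -0.516 to 1.09 for Hist1h1b, from -0.467 to 0.0905 for Hist1h1e, from -0.934 to 0.0315 for Hist1h2ap and from -0.587 to 0.0774 for Hist2h4.

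The mean log2 ratio of the sum in S to other cells (1.86) was 1.40 and 2.12 at 3 and 5 phase genes, 2.20 in thinned cells and 2.07 among Zbtb16-positive cells, that of G2/M was 3.15 in thinned cells and that of both 4.19 among Zbtb16-positive cells. No value was obtained for both in thinned cells, since almost none met both rules after thinning. For BM + Spl against BM only the log2 ratio in S (-0.28) was -0.0764 and -0.320 at 3 and 5 phase genes, -0.321 thinned, 0.0946 among Zbtb16-positive cells, -0.236 without the deepest 5% and -0.239 scaled by the median of all genes. In G2/M (0.16) it was -0.514 and 0.294 at 3 and 5 phase genes, -0.0389 thinned, -0.182 among Zbtb16-positive cells and -0.0255 without the deepest 5%. In other cells (-0.15) it was -0.0491 at 5 phase genes, 0.243 thinned and -0.211 among Zbtb16-positive cells, and over all cells (0.37) 0.295 and 0.416 in the latter settings. Members past 1.5-fold in S, 1 higher and 10 lower, became 2 and 3 at 3 phase genes, 0 higher at 5, 5 and 1 among Zbtb16-positive cells, 4 lower thinned, 3 higher at 20 UMIs and 6 lower at 200. In other cells 4 and 9 became 7 higher at 5 phase genes, 17 and 5 thinned, 2 higher among Zbtb16-positive cells and 2 and 5 at 200 UMIs.

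For C57BL/6 against BM only the log2 ratio stayed below 0 in every setting tried. In S (-1.37) it was -1.17 at 3 phase genes, -0.962 thinned, -1.49 without the deepest 5%, -1.29 with mitochondrial and T cell receptor UMIs left out of the total and -1.22 scaled by the median. In G2/M (-1.71) the same settings but the last gave -1.89, -1.81, -1.82 and -1.63, and Zbtb16-positive cells -1.79. In other cells (-1.14) the 5 settings gave -1.25, -0.873, -1.20, -1.05 and -0.908, 5 phase genes -1.09 and Zbtb16-positive cells -0.952. Counts in S, 2 higher and 36 lower, became 1 and 7 thinned and 1 and 22 at 200 UMIs, and in other cells, 5 and 30, 3 higher at 3 phase genes, 8 thinned, and 3 and 19 at 200 UMIs.

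Depth limits the calls. Cells called S, G2/M or both made up 23.1%, 10.3% and 17.6% of C57BL/6, BM only and BM + Spl, and 29.3%, 13.2% and 21.2% at 3 phase genes, 19.3%, 8.44% and 14.9% at 5, and 6.79%, 4.05% and 6.57% in cells thinned to 2700 UMIs, with 11.04% and 13.6% of C57BL/6 and BM + Spl at 4000. Other cells with a histone UMI were 47.7%, 68.0% and 65.7% at 2700 UMIs, with phase called after thinning, and 57.7%, 77.2% and 75.3% at 4000, and 79.2% in C57BL/6 with no filter on cells. For the 34 members named by the rule, not all fitted members, 1131 tested values under an alternative kept direction and side of the threshold. Of the others, 93 lost and 34 gained the call, and 17 turned. The counts, sums and shares were less steady. Of their values under an alternative, 198 stayed near the main value, 90 moved from it and 6 turned.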
